A study of Mus musculus with 4 samples.

Results

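The nuclear genes of respiratory complexes II to V were examined in neonatal PMN-MDSCs, the polymorphonuclear myeloid-derived suppressor cells of the spleen. The genes were taken by their symbols, under a rule set with earlier results of these data known, as those beginning with Sdha to Sdhd, Uqcr, Cox4 to Cox8 or Atp5, without pseudogene rows marked -ps, and Cyc1 and Cycs. The rule gave 52 genes of the 28585 listed, namely 8 of complex II, 9 of complex III, 17 of complex IV, 17 of complex V and the gene of cytochrome c. The complex II group holds 4 subunits and 4 assembly factors, Sdhaf1 to Sdhaf4, whose symbols match the same pattern. Bulk RNA sequencing, which averages over all cells of a sample, had been performed on PMN-MDSCs from spleens on postnatal day 7. There were 2 libraries labelled Dhps cko and 2 labelled Dhps flox. Dhps encodes deoxyhypusine synthase, which uses spermidine to modify the translation factor eIF5A. The Dhps cko libraries are from Dhps ΔLysm mice, in which Cre expressed from the Lysm locus deletes floxed Dhps in myeloid cells, and the Dhps flox libraries are from Dhps fl/fl mice, which carry the floxed alleles. Animals were on a C57BL/6J background, and both sexes were used in the study. The Lysm promoter is active in macrophages and monocytes as well as in neutrophils, so the deletion is not restricted to the sorted cells. The sources used here do not say whether a library held cells of 1 pup or of several, and p-values therefore measure only the spread between these libraries, which may be technical.

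Complexes II to V carry electrons from succinate and ubiquinol to oxygen and turn the resulting proton gradient into ATP. Complex II, succinate dehydrogenase, is also an enzyme of the tricarboxylic acid cycle and is the only respiratory complex encoded wholly in the nucleus. Complex III passes electrons from ubiquinol to cytochrome c, complex IV passes them on to oxygen, and complex V, the ATP synthase, is driven by the returning protons. Mature neutrophils are known for a reliance on glycolysis and for few mitochondria, whereas immature and suppressive neutrophils can respire. The comparison of the 2 genotypes asks whether transcripts of this machinery differ when Dhps is deleted in the myeloid lineage.

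The 4 libraries were alike in size. FPKM, the fragments of a gene scaled by its length and by the fragments of the library, summed to between 304281 and 319286, and between 10611 and 10729 genes reached 1 FPKM. From the steps between low values, depth was estimated at 29900000 to 32000000 fragments, which is approximate. At the estimated depth, 38.9% to 41.8% of these values lay near a whole number of fragments, and 30% would by chance at a depth fixed beforehand. The estimate was the depth that best gave whole numbers, so these shares do not test it. The correlation of log2 values was 0.987 between the Dhps ΔLysm libraries, 0.979 between the Dhps fl/fl libraries and 0.978 to 0.983 across genotypes. The identity of the cells was checked with 13 neutrophil markers, whose summed FPKM was 79135 and 81556 in the Dhps ΔLysm libraries and 78882 and 74458 in the Dhps fl/fl libraries. Ngp, a secondary granule gene, was the most abundant of them, at 27902 and 27612 in Dhps ΔLysm and at 27249 and 26339 in Dhps fl/fl. The cells were sorted as CD11b+, Ly6C low or negative and Ly6G+. Ly6g, which encodes the last of these antigens, was present at 222 and 242 FPKM in Dhps ΔLysm and at 195 and 185 in Dhps fl/fl. Dhps itself was at 2.38 and 2.59 FPKM in Dhps ΔLysm and at 3.57 and 3.11 in Dhps fl/fl, so that transcript remained in both deleted libraries. Its log2 fold change was -0.41 (SE 0.13, limma with Benjamini-Hochberg adjusted p = 0.63), and a value for the whole gene does not separate intact from deleted transcripts.

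None of the respiratory genes met the threshold of an adjusted p under 0.05, and most lay slightly higher in Dhps ΔLysm. After genes with a mean under 0.1 FPKM were left out, 51 of the 52 were tested among 17948 genes, Cox6c2 being the one left out, and 44 of the 52 averaged 1 FPKM or more. By limma with Benjamini-Hochberg adjustment over all genes tested, 0 were higher (background 0.00557%, which is 1 gene) and 0 were lower (background 0.0%), and the lowest adjusted p was 0.49. At an unadjusted limma p under 0.05, 9 were higher against a background of 4.72% of all genes, and 1 was lower against a background of 2.28%. The log2 fold change was above 0 for 42 of the 51 genes, against 52.2% of all genes tested. Both Dhps ΔLysm libraries lay above both Dhps fl/fl libraries for 22 of them, against 20.0% of all genes, and below for 2, Uqcrb and Sdhaf1, against 16.0%. The differences were small, with a median log2 fold change of 0.13, beside 0.01 over all genes tested, and a range from -0.32 to 0.44.

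The direction was not carried evenly by the libraries. Of the 51 genes, 26 were highest in Dhps ΔLysm replicate 1, 15 in Dhps ΔLysm replicate 2, 5 in Dhps fl/fl replicate 1 and 5 in Dhps fl/fl replicate 2. The 9 genes that were higher at an unadjusted p under 0.05 became 1 without Dhps ΔLysm replicate 1, 4 without Dhps ΔLysm replicate 2, 8 without Dhps fl/fl replicate 1 and 2 without Dhps fl/fl replicate 2. In the same order these were 1.96%, 7.84%, 15.7% and 3.92% of the 51, against 2.3%, 2.6%, 5.25% and 5.27% of all genes, so that the share was below the background without Dhps ΔLysm replicate 1 and without Dhps fl/fl replicate 2. Likewise, the median log2 fold change was 0.08 without Dhps ΔLysm replicate 1, and 0.12, 0.15 and 0.10 without each of the others in the same order. Summed FPKM of all 52 genes was 988 and 964 in Dhps ΔLysm and 911 and 890.2 in Dhps fl/fl, so the groups did not overlap. The mean of Dhps ΔLysm was 108.4% of that of Dhps fl/fl, beside 102.2% for the sum over all genes tested. In bulk samples, fewer cells of a type and less RNA per cell cannot be told apart.

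**Figure D1:**
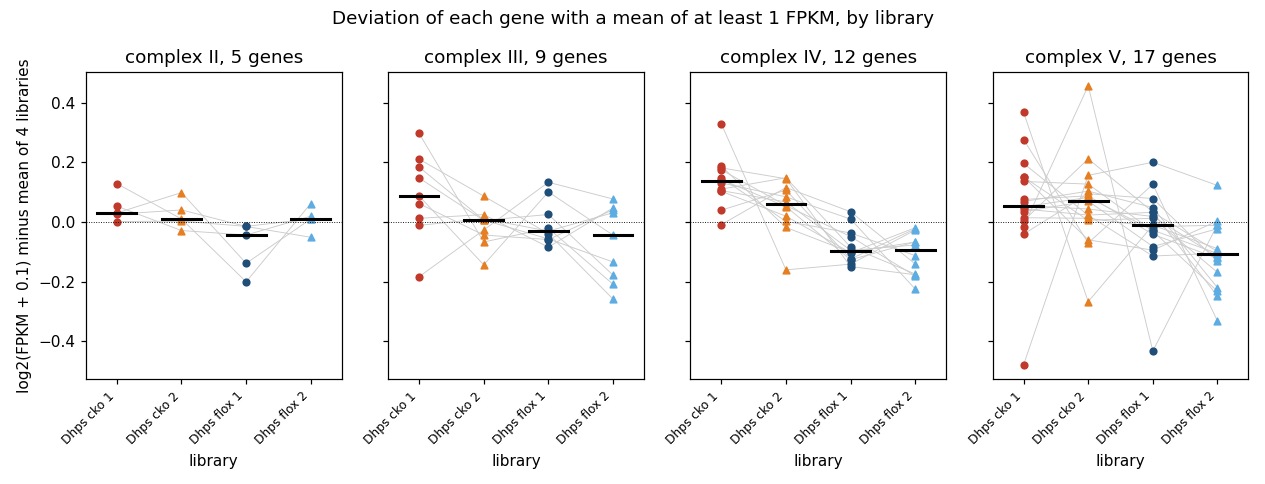
Log2(FPKM + 0.1) of each gene averaging 1 FPKM or more, minus the mean of the 4 libraries (y axis), in each library (x axis), by complex; points are genes, grey lines join a gene, and black bars are medians over genes. For complex IV the medians are 0.14 and 0.06 in the libraries of Dhps cko (Dhps ΔLysm) and -0.10 and -0.10 in those of Dhps flox (Dhps fl/fl), while for complex II the libraries lie within the spread of the genes.

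Genes with Nduf symbols and the 6 mitochondrially encoded subunits of complexes III to V also lay mostly above 0. Complex I, which feeds electrons from NADH into the chain, was read through the 48 genes whose symbols begin with Nduf. These were taken by symbol alone, with assembly factors among them, so not all need encode a subunit of complex I. Of the 48, 40 had a log2 fold change above 0, against 52.2% of all genes, with a median of 0.11. Ndufb11, the most abundant, was at 40.1 and 37.1 FPKM in Dhps ΔLysm and at 40.9 and 33.2 in Dhps fl/fl, which overlapped. At an unadjusted p under 0.05, 7 were higher (background 4.72%), namely Ndufa1, Ndufa2, Ndufa3, Ndufa8, Ndufb9, Ndufs7 and Ndufv1. The 1 that was lower (background 2.28%) was Ndufa4l2, which is in the list by its symbol alone, and 0 had an adjusted p under 0.05 by limma. The mitochondrially encoded subunits, mt-Cytb, mt-Co1 to mt-Co3, mt-Atp6 and mt-Atp8, had a median log2 fold change of 0.09, and 6 of 6 were above 0. Their summed FPKM was 7226 and 7416 in Dhps ΔLysm and 7479 and 6353 in Dhps fl/fl, so that the groups overlapped and Dhps fl/fl replicate 2 was the lowest library. The most abundant of them, mt-Co1, was at 2868 and 2940.2 in Dhps ΔLysm and at 2871 and 2609 in Dhps fl/fl. No difference between the nuclear genes of complexes II to V and the Nduf genes was tested.

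Promoter sequences were read for 4 genes to which the results return: Cox5a and Cox6a1, which had the lowest unadjusted p-values among the genes examined, Atp5h, a stalk gene of complex V that was higher at an unadjusted p under 0.05, and Sdhd, which hardly differed. Each is the 250 bases before the transcription start, 5′ to 3′ on the strand of the gene, from RefSeq on GRCm38.p6. Capitals mark GCGCANGCG, the core recognised by nuclear respiratory factor 1 (NRF1), and CCGGAAG, the core recognised by ETS factors such as GABP, both searched on either strand.
Cox5a, chr9:57520982-57521231, plus strand: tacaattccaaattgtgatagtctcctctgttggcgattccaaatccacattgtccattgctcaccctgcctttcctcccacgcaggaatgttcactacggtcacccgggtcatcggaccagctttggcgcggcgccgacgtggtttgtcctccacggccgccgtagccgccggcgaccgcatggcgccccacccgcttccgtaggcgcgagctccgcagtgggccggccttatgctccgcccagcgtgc
Cox6a1, chr5:115348959-115349208, minus strand: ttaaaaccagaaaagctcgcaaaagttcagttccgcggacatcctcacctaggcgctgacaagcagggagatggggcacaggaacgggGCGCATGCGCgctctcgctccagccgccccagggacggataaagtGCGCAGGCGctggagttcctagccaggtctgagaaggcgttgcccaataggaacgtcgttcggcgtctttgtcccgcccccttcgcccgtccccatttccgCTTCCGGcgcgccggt
Atp5h, chr11:115419920-115420169, minus strand: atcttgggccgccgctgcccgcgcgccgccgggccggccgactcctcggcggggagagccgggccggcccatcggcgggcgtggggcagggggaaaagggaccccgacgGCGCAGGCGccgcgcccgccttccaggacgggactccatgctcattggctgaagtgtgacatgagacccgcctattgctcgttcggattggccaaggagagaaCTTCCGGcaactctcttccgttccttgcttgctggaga
Sdhd, chr9:50603850-50604099, minus strand: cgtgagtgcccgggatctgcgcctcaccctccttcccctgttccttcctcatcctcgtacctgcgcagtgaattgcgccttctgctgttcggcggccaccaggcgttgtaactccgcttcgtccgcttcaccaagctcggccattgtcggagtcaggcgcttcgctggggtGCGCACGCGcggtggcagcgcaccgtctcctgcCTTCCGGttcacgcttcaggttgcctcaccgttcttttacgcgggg
Cox5a held neither motif in this window, Cox6a1 held 3 NRF1 matches, of which 2 overlap on opposite strands, and 1 ETS match, and Atp5h and Sdhd held 1 of each. Over the window from 250 bases before to 50 after the start, 40 of the 52 genes were matched by symbol. The NRF1 core was found in 15 of these (37.5%) and the ETS core in 16 (40.0%), while 7 held both (17.5%). In the promoters of 7500 genes averaging 1 FPKM or more the shares were 16.4%, 23.2% and 4.2%, and in all 27025 genes of the table they were 7.0%, 9.9% and 1.5%. By complex, NRF1 matches were found in 4 of 7 genes of complex II, 2 of 5 of complex III, 1 of 12 of complex IV and 7 of 15 of complex V. The one of complex IV was Cox6a1. A match is a description of these letters and does not show that a factor binds there.

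Differences in complex II were small. Sdha, the flavoprotein that oxidizes succinate, was at 35.1 and 33.2 FPKM in Dhps ΔLysm and at 32.8 and 34.3 in Dhps fl/fl. Sdhd, one of the membrane anchors, was at 43.8 and 43.9 in Dhps ΔLysm and at 43.3 and 44.1 in Dhps fl/fl, which makes it the most abundant gene of the complex. In both, the Dhps ΔLysm values lay inside the range of the Dhps fl/fl values or overlapped it, and the log2 fold changes were 0.02 (95% interval -0.14 to 0.19) and 0.00 (95% interval -0.13 to 0.14). Sdhb, the iron-sulfur subunit, was at 15.6 and 16.3 FPKM in Dhps ΔLysm and at 13.8 and 15.3 in Dhps fl/fl, a narrow separation with a log2 fold change of 0.13 (SE 0.08, adjusted p = 0.80 by limma). Sdhc, the other membrane anchor, was at 10.3 and 9.46 in Dhps ΔLysm and at 8.16 and 9.81 in Dhps fl/fl, and the groups overlapped. The sum over the 8 genes was 111 and 109.8 FPKM in Dhps ΔLysm and 105 and 110.02 in Dhps fl/fl, which overlapped as well.

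The 4 assembly factors of complex II were much less abundant than its subunits. Sdhaf2, which helps to attach FAD to Sdha, was at 4.88 and 4.93 FPKM in Dhps ΔLysm and at 4.74 and 4.62 in Dhps fl/fl. Sdhaf4, which binds the flavinated Sdha before it joins Sdhb, was at 0.63 and 1.03 in Dhps ΔLysm and at 1.03 and 0.86 in Dhps fl/fl. Sdhaf1 and Sdhaf3 both assist Sdhb in obtaining its iron-sulfur clusters. Sdhaf1 was at 0.84 and 0.83 in Dhps ΔLysm and at 0.87 and 0.89 in Dhps fl/fl, without overlap, but with a log2 fold change of only -0.07 (SE 0.19). Of its exon bases, 69.6% overlap E130208F15Rik on the opposite strand, and whether strand was used in counting is not given in the sources used here, so reads of the 2 genes may not be told apart. Sdhaf3 was near the limit of the filter, at 0.13 and 0.17 FPKM in Dhps ΔLysm and 0.13 and 0.12 in Dhps fl/fl. The median log2 fold change was 0.08 over the 4 subunits and -0.00 over the 4 assembly factors.

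**Figure D2:**
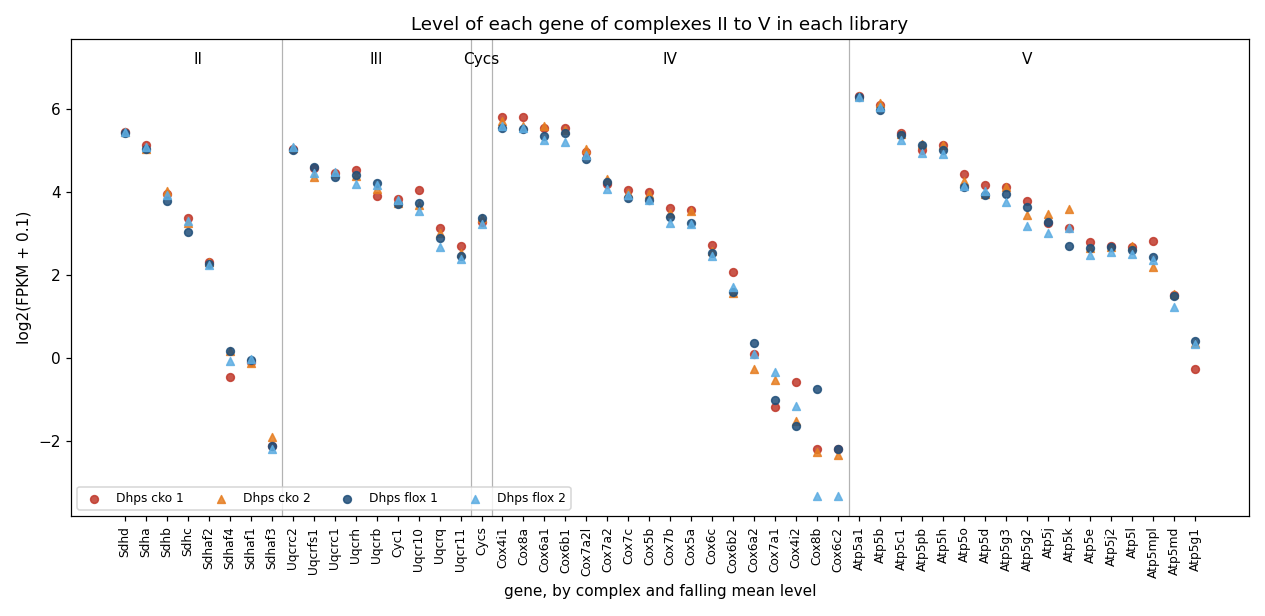
Level of each of the 52 genes (x axis, by complex and falling mean) as log2(FPKM + 0.1) (y axis) in each of the 4 libraries (red and orange, Dhps cko, which is Dhps ΔLysm; dark and light blue, Dhps flox, which is Dhps fl/fl). The libraries lie close together for abundant genes such as Atp5a1 and Sdhd, and apart for some of the 8 genes with a mean under 1 FPKM, such as Cox8b and Cox4i2, though not for Sdhaf1.

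In complex III, the core and catalytic subunits hardly differed, while the small subunits had values on both sides of 0, none with an adjusted p under 0.05 by limma. Uqcrc2 and Uqcrc1, the core proteins, had log2 fold changes of -0.00 (95% interval -0.15 to 0.15) and 0.04 (95% interval -0.15 to 0.22). Uqcrfs1, the Rieske iron-sulfur protein, was at 24.0 and 20.5 FPKM in Dhps ΔLysm and at 24.3 and 21.9 in Dhps fl/fl. Cyc1, cytochrome c1, was at 14.2 and 13.2 in Dhps ΔLysm and at 13.1 and 14.0 in Dhps fl/fl. None of these separated the genotypes. Uqcrq, a small subunit near the ubiquinone site, was at 8.75 and 8.02 in Dhps ΔLysm and at 7.34 and 6.29 in Dhps fl/fl, and both Dhps ΔLysm libraries were higher (log2 fold change 0.30, SE 0.11, unadjusted p = 0.042 and adjusted p = 0.69 by limma). Uqcrb, a ubiquinone-binding subunit, was at 15.0 and 16.7 in Dhps ΔLysm and at 18.7 and 17.99 in Dhps fl/fl. No other gene examined was lower at an unadjusted p under 0.05 (here log2 fold change -0.21, SE 0.08, unadjusted p = 0.047 and adjusted p = 0.70 by limma). Its unadjusted p by limma was under 0.05 in 8 of 15 alternative analyses. It was 0.172 without Dhps ΔLysm replicate 1, 0.192 without Dhps fl/fl replicate 1, 0.123 without Dhps fl/fl replicate 2, 0.0577 with centring by transcript length, 0.145 without limma's variance trend, 0.0864 with the replicate number as a block and 0.45 with near-identical copies added. The other small subunits, Uqcrh, Uqcr10 and Uqcr11, had log2 fold changes of 0.15, 0.23 and 0.19, none with an unadjusted p under 0.05. Over the complex, 6 of 9 genes were above 0 with a median of 0.037, which was 0.043 and 0.07 without Dhps ΔLysm replicate 1 or 2 and 0.016 and 0.068 without Dhps fl/fl replicate 1 or 2, and summed FPKM was 163 and 154 in Dhps ΔLysm and 156 and 152 in Dhps fl/fl.

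Cycs, cytochrome c, the carrier between complexes III and IV that also takes part in apoptosis when released, was at 9.61 and 10.4 FPKM in Dhps ΔLysm and at 10.4 and 9.32 in Dhps fl/fl. The groups overlapped, with a log2 fold change of 0.02 (95% interval -0.21 to 0.26). Near-identical copies, described further on, made up 41.5% of the sum of Cycs and its copies. With copies added the log2 fold change was 0.09 (SE 0.12), and the groups overlapped too.

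Of the 16 genes of complex IV that were tested, 13 had a log2 fold change above 0. All 12 of its genes averaging 1 FPKM or more had a log2 fold change above 0, with a range from 0.11 to 0.33 and a median of 0.17, and for 10 of these 12 both Dhps ΔLysm libraries lay above both Dhps fl/fl libraries, against 21.4% of all genes at this level. The 3 below 0, Cox6a2, Cox7a1 and Cox8b, at -0.32, -0.19 and -0.19, averaged under 1 FPKM and overlapped between genotypes. Over the complex, 5 were higher at an unadjusted p under 0.05 (background 4.72%), 0 were lower (background 2.28%) and 0 had an adjusted p under 0.05 by limma. Summed FPKM was 325 and 313 in Dhps ΔLysm and 283 and 276 in Dhps fl/fl, a mean of 114.1% of that of Dhps fl/fl. The same share was 102.8% for complex II, 102.7% for complex III, 108.3% for complex V and 102.2% for all genes tested. These shares are not corrected for transcript length, which is taken up further on. No difference between complexes was tested.

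Cox5a and Cox4i1 form an early module of complex IV assembly. Cox5a, whose promoter held neither motif, was at 11.9 and 11.6 FPKM in Dhps ΔLysm and at 9.43 and 9.25 in Dhps fl/fl. The gap between genotypes exceeded the gap within either, and its log2 fold change of 0.33 (SE 0.07) had an unadjusted p of 0.0053 and an adjusted p of 0.49 by limma. This was the one gene with an unadjusted p under 0.05 in 15 of 15 alternative analyses, where its log2 fold change ran from 0.25 to 0.35. Of the other genes higher at this threshold, Cox6a1 was under it in 11 of the 15, Atp5g3 in 10, Uqcrq in 8, Cox4i1 and Atp5o in 7 each, and Cox7b, Cox5b and Atp5h in 6 each. Of the exon bases of Cox5a, 12.8% overlap the noncoding gene Gm26631 on the opposite strand. Other overlaps on the opposite strand include those of Atp5o (18.1% with Gm15976, 17.5% with D430001F17Rik), Uqcrc2 (19.7% with Pdzd9) and Cox4i1 (9.9% with Emc8). Since the use of strand in counting is not given, reads of such pairs may not be told apart. Cox4i1, the most abundant gene of the complex, was at 56.4 and 53.0 in Dhps ΔLysm and at 46.8 and 48.8 in Dhps fl/fl (log2 fold change 0.19, SE 0.06, adjusted p = 0.63 by limma).

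Several other subunits shared this direction. Cox6a1, a subunit involved in dimer contacts and in regulation by nucleotides, was at 47.0 and 48.3 FPKM in Dhps ΔLysm and at 41.1 and 38.6 in Dhps fl/fl (log2 fold change 0.26, SE 0.06, unadjusted p = 0.0078 and adjusted p = 0.53 by limma). Cox7b was at 12.2 and 11.2 in Dhps ΔLysm and at 10.4 and 9.51 in Dhps fl/fl. Cox5b, which carries zinc on the matrix side, was at 15.98 and 15.6 in Dhps ΔLysm and at 13.9 and 14.1 in Dhps fl/fl. Their log2 fold changes were 0.23 and 0.17, each with an unadjusted p under 0.05 and an adjusted p of 0.71 and 0.69 by limma. Cox8a was at 56.0 and 48.5 in Dhps ΔLysm and at 45.8 and 46.9 in Dhps fl/fl, and Cox6b1, which faces the cytochrome c side, was at 47.0 and 45.5 in Dhps ΔLysm and at 43.2 and 36.7 in Dhps fl/fl. The libraries of both genes separated by genotype, but the limma p-values of 0.099 and 0.066 were not under 0.05 even unadjusted. Cox7a2l, Cox7c and Cox6c were also separated, with log2 fold changes of 0.15, 0.12 and 0.15, while Cox7a2 and Cox6b2 overlapped. The separation of Cox5b and of Cox7c held for the gene alone and not for its sum with near-identical copies, which is given further on.

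**Figure D3:**
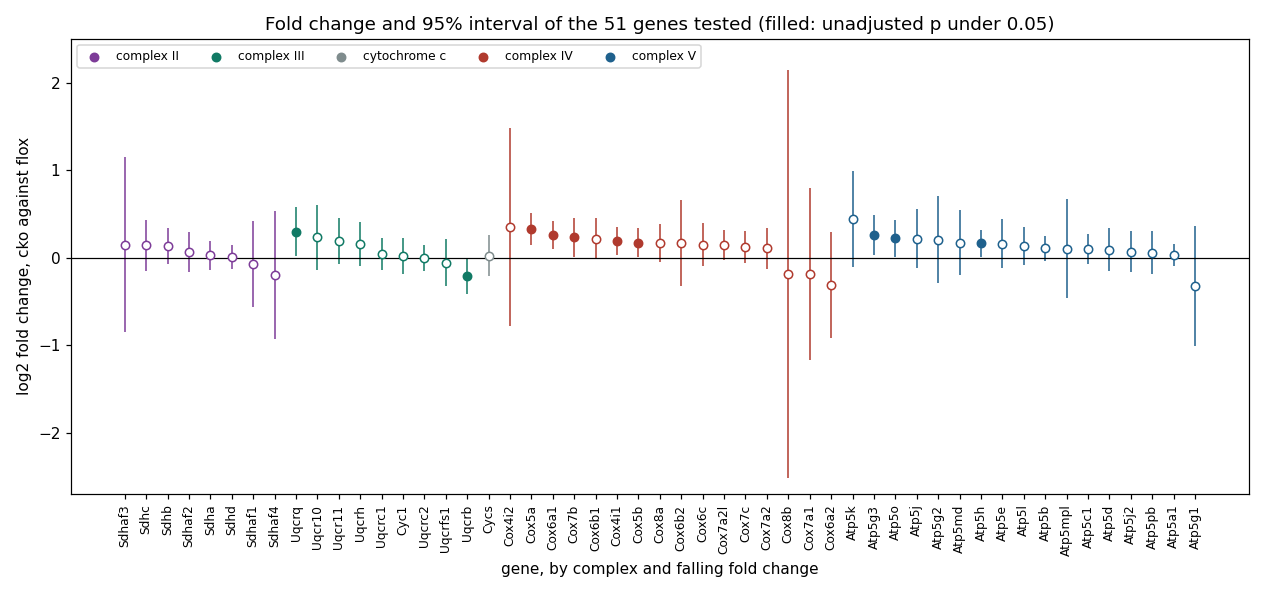
Log2 fold change of Dhps cko (Dhps ΔLysm) against Dhps flox (Dhps fl/fl) on the log2(FPKM + 0.1) scale (y axis) for the 51 genes tested (x axis), by complex; bars are 95% intervals from limma, and filled points have an unadjusted p under 0.05. The 9 filled points above 0 include 5 of complex IV and 3 of complex V, and the 1 below 0 is Uqcrb.

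Several complex IV subunits exist as pairs of isoforms, one general and one known mainly from heart, muscle, lung or testis. The isoform known from particular tissues made up little of the FPKM of each family. Cox4i2, the lung isoform, made up 0.47% to 1.0% of Cox4i FPKM across the libraries, and Cox6a2, the heart and muscle isoform, 1.49% to 2.84% of Cox6a. The muscle isoform Cox7a1 made up 0.68% to 1.46% of Cox7a. The rest was 35.3% to 40.02% for the general isoform Cox7a2 and 59.13% to 63.24% for Cox7a2l, a relative that takes part in supercomplexes. Cox8b was listed at 0 in Dhps fl/fl replicate 2, and its other values were 0.12, 0.11 and 0.50 FPKM. The exception was Cox6b2, the testis isoform, with 5.97% to 8.02% of Cox6b and 4.10 and 2.89 FPKM in Dhps ΔLysm and 2.93 and 3.18 in Dhps fl/fl. No share separated the genotypes for these minor isoforms except that of Cox6a2, at 2.04% and 1.49% in Dhps ΔLysm and 2.84% and 2.45% in Dhps fl/fl, for which an exact permutation test of 2 against 2 libraries cannot give a p below 0.33.

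In complex V, the median was smaller over the catalytic head than over the membrane part and stalks. Over the complex, 16 of 17 genes had a log2 fold change above 0, with a median of 0.133. This median was 0.066 without Dhps fl/fl replicate 2 and 0.122 to 0.173 without each of the others. Over the 17 genes, 3 were higher at an unadjusted p under 0.05 (background 4.72%), 0 lower (background 2.28%) and 0 with an adjusted p under 0.05 by limma. For the 5 F1 subunits the median was 0.10, and for the 12 membrane and stalk subunits it was 0.17, a difference that was not tested. Atp5a1 and Atp5b, the alpha and beta subunits of the catalytic hexamer, were the most abundant genes examined. Atp5a1 was at 80.5 and 80.4 FPKM in Dhps ΔLysm and at 78.8 and 79.1 in Dhps fl/fl, which did not overlap but differed by only 0.03 on the log2 scale (95% interval -0.10 to 0.15). Atp5b was at 68.9 and 70.7 in Dhps ΔLysm and at 63.6 and 66.2 in Dhps fl/fl (log2 fold change 0.11, SE 0.05, adjusted p = 0.77 by limma). Atp5c1, the gamma subunit that turns within the head, was at 42.9 and 42.5 in Dhps ΔLysm and at 41.8 and 38.0 in Dhps fl/fl.

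Among stalk and membrane genes, Atp5g3, which encodes the c subunit of the rotating ring, was at 17.5 and 17.4 FPKM in Dhps ΔLysm and at 15.6 and 13.5 in Dhps fl/fl (log2 fold change 0.26, SE 0.09, adjusted p = 0.65 by limma). Atp5o, the protein that joins the peripheral stalk to the head and that gives oligomycin sensitivity, was at 21.7 and 19.2 in Dhps ΔLysm and at 17.5 and 17.6 in Dhps fl/fl. Atp5h, subunit d of the same stalk, was at 35.0 and 35.3 in Dhps ΔLysm and at 32.2 and 30.5 in Dhps fl/fl. In all 3 genes both Dhps ΔLysm libraries were the higher ones, and the log2 fold changes of Atp5o and Atp5h were 0.22 and 0.16, with unadjusted limma p-values of 0.042 and 0.040. The largest log2 fold change of all 51 genes was that of Atp5k, subunit e, at 0.44, but its libraries overlapped at 8.65 and 12.04 in Dhps ΔLysm and 6.45 and 8.69 in Dhps fl/fl, and its 95% interval ran from -0.11 to 0.99. The c subunit is encoded by 3 genes with the same mature protein, of which Atp5g3 gave 53.25% to 59.09% of Atp5g FPKM, Atp5g2 36.87% to 43.14% and Atp5g1 2.28% to 4.89%. These shares count the named genes alone. Near-identical copies made up 91.6% of the sum for Atp5g1 and 48.7% for Atp5g2, both from copies with at least 99.8% identity, and no such copy was found for Atp5g3. With copies added, Atp5g2 was the highest of the 3 in each library, at 25.2 and 21.1 FPKM in Dhps ΔLysm and at 24.2 and 19.6 in Dhps fl/fl, and Atp5g1 was at 13.7 and 13.3 in Dhps ΔLysm and at 11.46 and 13.00 in Dhps fl/fl. Atp5g1 was the one gene of complex V below 0, at 0.73 and 1.19 FPKM in Dhps ΔLysm and 1.23 and 1.16 in Dhps fl/fl.

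Respiratory genes are known for processed copies elsewhere in the genome, whose reads can be confused with those of the gene. Copies with at least 95% identity over at least 50% of the coding sequence were found in annotated transcripts for 19 of 51 genes with a coding sequence, and 36 such copies were listed, 15 of them averaging 1 FPKM or more. For 11 genes the copies gave at least 10% of the summed FPKM. Atp5g1 was the extreme, since 91.6% of its sum came from Gm10039, with 99.8% identity, at 12.99 and 12.1 FPKM in Dhps ΔLysm and at 10.2 and 11.8 in Dhps fl/fl. For Atp5l, subunit g, the copies gave 75.3%, mostly from Gm10221, which matched its whole coding sequence without a difference.

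When each gene was summed with its copies, an analysis added after the data were seen, the median log2 fold change was 0.12 and 9 genes were higher at an unadjusted p under 0.05, against 4.71% of all genes in that fit, but not the same 9. Uqcr11 and Atp5l came in, with log2 fold changes of 0.33 and 0.33, and Cox5b and Atp5o went out, at 0.04 and 0.21. The sum of Cox5b and Cox5b-ps was 18.8 and 17.9 FPKM in Dhps ΔLysm and 17.5 and 18.2 in Dhps fl/fl, so the separation seen for the gene alone was gone. The same held for Cox7c, whose sum was 25.4 and 21.9 in Dhps ΔLysm and 23.8 and 23.05 in Dhps fl/fl, with a log2 fold change of 0.009. Atp5md, a small membrane subunit, was at 2.76 and 2.83 in Dhps ΔLysm and at 2.72 and 2.24 in Dhps fl/fl alone, and at 4.10 and 4.97 in Dhps ΔLysm and 5.61 and 2.97 in Dhps fl/fl with its copies, which overlapped. Uqcrb summed with its copies was at 21.0 and 22.0 in Dhps ΔLysm and at 25.5 and 20.7 in Dhps fl/fl, and 0 genes were lower at an unadjusted p under 0.05, against 2.28% of all genes. Atp5g1 turned from a log2 fold change of -0.32 to 0.15. Atp5g1, Uqcr10 and Atp5k went the other way, overlapping alone and with both Dhps ΔLysm libraries higher as sums. The sum of Uqcr10 was narrowly separated, at 18.4 and 14.64 FPKM in Dhps ΔLysm and at 14.60 and 13.7 in Dhps fl/fl. Cox5a, Cox6a1, Cox4i1, Uqcrq and Atp5g3, for which no such copies were found, kept their values.

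**Figure D4:**
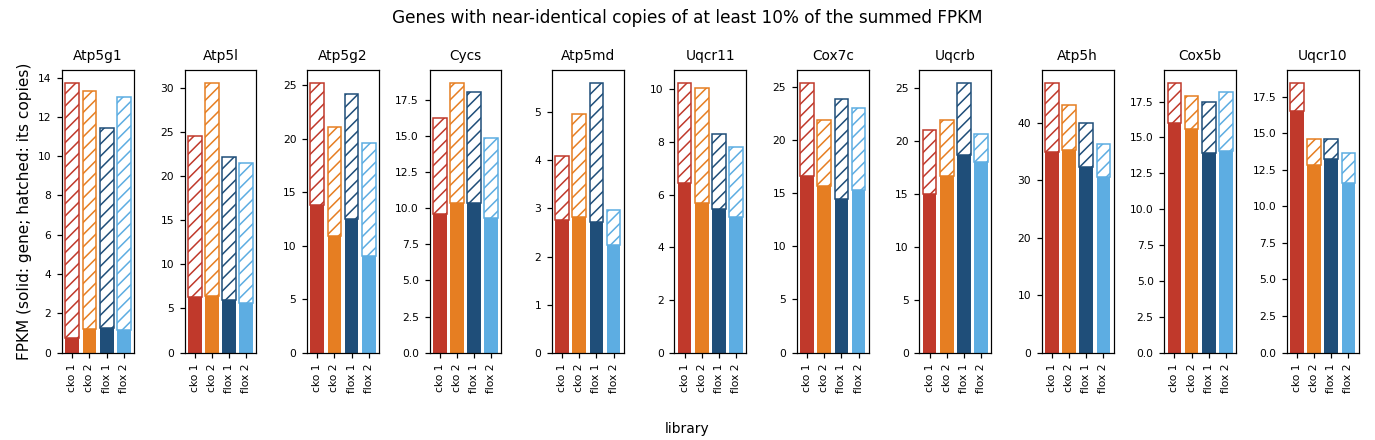
FPKM (y axis, a separate scale for each gene) of the 11 genes whose near-identical copies gave at least 10% of the sum, in each library (x axis); solid bars are the gene and hatched bars its copies. In Cox5b, Cox7c, Atp5md and Uqcrb the genotypes separate for the solid part and overlap for the sum, in Atp5g1 and Uqcr10 they overlap for the solid part and separate for the sum, and in Atp5g1 most of the sum is the copy.

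Most of these transcripts are short, and fold changes in these libraries moved with transcript length. Among 10629 genes averaging 1 FPKM or more, divided into 5 equal groups by their longest annotated transcript, the median log2 fold change of genes outside complexes II to V was 0.10 in the shortest group, then 0.06, 0.02, -0.02 and -0.06 in the longest. Of the 44 genes examined at this level, 24 were in the shortest group, of at most 1372 bases, where their median was 0.17, and 9 were in the next, where it was 0.10. When each library was centred within 20 bins of transcript length, the median over the 51 genes was 0.04, 36 of 51 were above 0, and 1 gene, Cox5a, was higher at an unadjusted p under 0.05, where the background was 3.3% of all genes (log2 fold change 0.25, adjusted p = 0.64 by limma). In that fit the median over all genes was 0.008. Complex II then had a median of 0.033, complex III of 0.032, complex IV of 0.067 and complex V of 0.034. The median length of the longest transcript was 2695 bases for complex II, 1363 for III, 694.5 for IV and 1697 for V. The part of length in the values above was not tested beyond this.

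**Figure D5:**
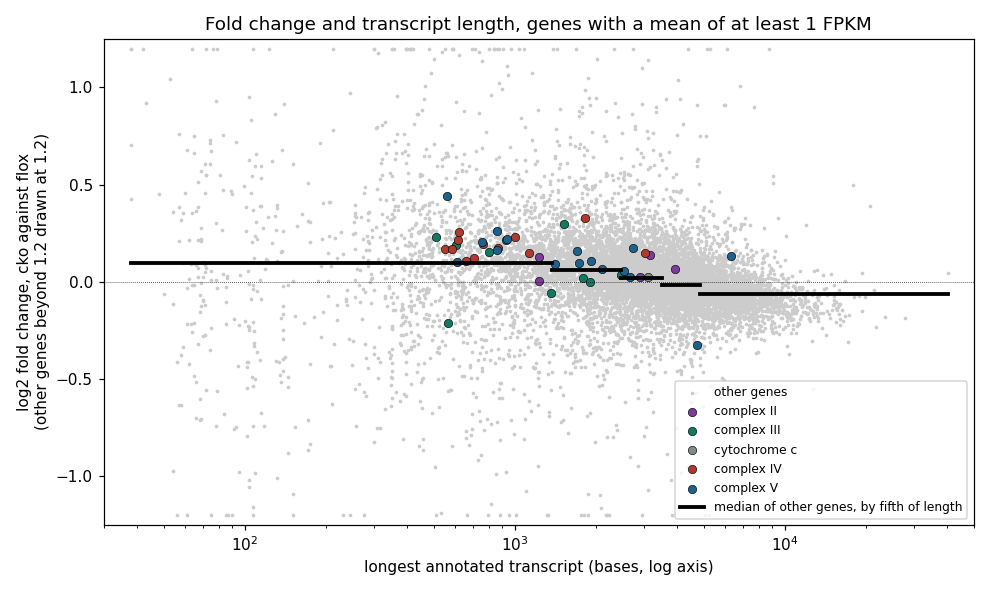
Log2 fold change of Dhps cko (Dhps ΔLysm) against Dhps flox (Dhps fl/fl) (y axis) by length of the longest annotated transcript in bases (x axis, log scale) for genes averaging 1 FPKM or more; grey points are other genes, coloured points the genes of complexes II to V, and black lines the medians of other genes in 5 groups of length. The black lines step down from 0.10 to -0.06, and most coloured points lie at the short end and above them.

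Genes that assemble and regulate the complexes gave no common direction. Over 6 assembly genes of complex III the median log2 fold change was 0.10, with 5 above 0 and Uqcc3 the most abundant at 9.46 and 9.05 FPKM in Dhps ΔLysm and 8.81 and 9.38 in Dhps fl/fl, and over 23 of complex IV it was 0.08, with 15 above 0. Coa3, which helps Cox1 to mature and was the most abundant of the latter, was at 16.5 and 14.5 FPKM in Dhps ΔLysm and at 13.5 and 13.07 in Dhps fl/fl. At an unadjusted p under 0.05, Pet100, an assembly factor of complex IV, was higher, at 4.55 and 4.12 FPKM in Dhps ΔLysm and 3.05 and 3.55 in Dhps fl/fl. Sco2, which delivers copper to complex IV, was lower, at 0.06 and 0.08 in Dhps ΔLysm and 0.27 and 0.25 in Dhps fl/fl, levels close to the limit of the filter. Atpif1, the inhibitor of ATP hydrolysis by complex V, was at 10.5 and 10.04 in Dhps ΔLysm and at 8.42 and 8.56 in Dhps fl/fl (log2 fold change 0.27, SE 0.07, unadjusted p = 0.014 and adjusted p = 0.57 by limma), and the median of the 5 tested genes of its list was -0.04. Of 9 tested regulators of respiratory genes, 5 were above 0 and none had an unadjusted p under 0.05. Nrf1 was at 4.91 and 4.98 in Dhps ΔLysm and at 4.61 and 5.36 in Dhps fl/fl, and Gabpa, the DNA-binding subunit of GABP, was at 13.9 and 13.3 in Dhps ΔLysm and at 15.95 and 14.3 in Dhps fl/fl. Yy1 was the most abundant regulator and overlapped between genotypes.

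Most markers of other leukocytes had log2 fold changes above 0 (52.2% over all genes), none with an adjusted p under 0.05 by limma. The neutrophil markers had 11 of 13 above 0 as well (median 0.10), and Ly6g was the 1 with an unadjusted p under 0.05. Of 10 monocyte and macrophage markers, 10 had a log2 fold change above 0 (median 0.38), and their summed FPKM was 220.2 and 224 in Dhps ΔLysm and 176 and 173 in Dhps fl/fl. C1qa, C1qb, C1qc, Ccr2, Cd68 and Marco, which makes 6 of the 10, were higher at an unadjusted p under 0.05 (background 4.72%, also for the lists that follow), and Cd68, the most abundant, was at 45.01 and 41.9 in Dhps ΔLysm and at 33.6 and 37.6 in Dhps fl/fl. For B cells 7 of 7 markers were above 0 (median 0.50), with sums of 62.5 and 65.2 in Dhps ΔLysm and 40.03 and 49.4 in Dhps fl/fl, and 4 of them, Cd22, Cd79a, Ighm and Ms4a1, had an unadjusted p under 0.05. For T cells 8 of 8 were above 0 (median 0.67), with sums of 18.5 and 15.0 in Dhps ΔLysm and 11.9 and 8.01 in Dhps fl/fl, and 3 of them, Lck, Trac and Trbc2, had an unadjusted p under 0.05. None of the markers of these 3 lists was at 0 in all libraries. Summed FPKM of different genes does not give a share of cells. The part of other cells in the differences of the respiratory genes was not tested.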

How the data were processed

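Bulk RNA sequencing of 4 libraries was analysed, 2 per genotype, grouped by the genotype in the sample labels. The deposited values are FPKM per gene, which the authors made with cutadapt, HISAT2 and StringTie on mm10, per the labels and methods. Annotation release, strand setting and scaling between libraries are not given in the sources used here. Of the gene identifiers, 28511 were in GENCODE M21 (GRCm38) and 74 were not. Lengths, overlaps and coding sequences were taken from there and promoters from RefSeq, and near-identical coding sequences were found with BLAST 2.17.0.

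Log2(FPKM + 0.1) was compared for genes averaging 0.1 FPKM or more with limma 3.58.1 in R 4.3.3 (two-sided, mean-variance trend, Benjamini-Hochberg adjustment over all genes, threshold 0.05, no replicate block). Fold changes are on this scale, which understates those of low genes. Values are not counts and whole reads could not be recovered, so no count test was run. With 2 libraries per genotype an exact permutation test cannot go below p = 0.33. The comparison was tested on simulated data. Other steps used Python 3.11.15, numpy 2.4.6, pandas 2.3.3 and matplotlib 3.10.9. The genes examined and all gene lists were chosen with earlier results of these data known. Named were Dhps, all Sdh genes, Cyc1, Cycs, the 3 most abundant genes of complexes III, IV and V, up to 8 higher and 5 lower genes with the largest change among those without overlap and averaging 1 FPKM or more, isoform families, and of other lists the most abundant gene and any with an unadjusted p under 0.05. Other genes were named after their values were seen. Alternatives were other pseudocounts, filters and scalings, centring by length, no trend, a replicate block, the omission of 1 library at a time and, added after the data were seen, summing near-identical copies. Protein sequences were not used here. One marker gene of a leukocyte list is not reported here and was left out of its list.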

Additional observations from a re-analysis of the deposited data

How the results depend on the processing

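No gene of complexes II to V had an adjusted p under 0.05 in any of the 15 alternatives. Over all genes, the 1 gene called became 2 with TPM scaling, 2 with quantile normalization, 4 with a mean of at least 1 FPKM, and 0 with no filter, with a pseudocount of 0.01, with the replicate block and in each analysis that left out 1 library (0 to 0). The 9 respiratory genes higher at an unadjusted p under 0.05 became 3 with TPM scaling, where 3.5% of all genes were higher, 1 with centring by length (3.3% of all genes), 1 without the trend (4.24%) and 1 to 8 when 1 library was left out (2.3% to 5.27%). The 1 lower gene, Uqcrb, became 0 with centring by length, without the trend and with copies added, and 0 to 1 when 1 library was left out, the 1 being Uqcrb without Dhps ΔLysm replicate 2 and Cox8b, at -1.481, without Dhps fl/fl replicate 2. The median log2 fold change of 0.133 became 0.039 with centring by length and 0.082 to 0.152 when 1 library was left out, and the 24 genes without overlap became 34 to 39, since fewer libraries were compared, beside 62.8% to 71.0% of all genes (66.7% to 76.5% of the 51). With the replicate block the higher genes became 5 (4.01% of all genes) and the lower 0, and same-numbered libraries did not deviate together (correlation -0.057 over 10629 genes), so they share only a number.

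Of 533 values of named genes under alternatives, 34, in 16 genes, changed sign, none in a gene with an adjusted p under 0.05. With TPM scaling the log2 fold change was -0.028 for Sdhd, -0.008 for Sdha, -0.014 for Cyc1, -0.009 for Cycs, -0.005 for Atp5a1 and 0.173 for Cox8b. With centring by length it was -0.104 for Sdhd, -0.061 for Cyc1, -0.002 for Atp5a1 and -0.007 for Cox7a2. With quantile normalization it was -0.029 for Sdhd and -0.022 for Atp5a1, with size factors -0.007 for Sdhd, with a pseudocount of 0.01 0.806 for Cox8b, and with copies added 0.146 for Atp5g1. When 1 library was left out it ran from -0.016 to 0.065 for Sdha, -0.513 to 0.118 for Sdhaf4, -0.035 to 0.07 for Cyc1, -0.117 to 0.82 for Cox4i2, -0.076 to 0.414 for Cox6b2, -0.52 to 0.14 for Cox7a1, -0.054 to 0.1 for Cycs, -0.172 to 0.059 for Uqcrfs1, -0.031 to 0.03 for Uqcrc2, -0.008 to 0.017 for Sdhd, -0.029 to 0.103 for Uqcrc1, -1.481 to 1.104 for Cox8b and -0.023 to 0.436 for Atp5g2. The cause of these changes was not tested. The 2 libraries per genotype limit the precision, with a median SE of 0.09 over the genes tested.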

Other observations

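Other lists were read for values only. The 5 genes of the primary granule list, read as markers of early neutrophil precursors, lay above 0 in 5 of 5 cases (median log2 fold change 0.55). Their summed FPKM was 81.3 and 54.5 in Dhps ΔLysm and 46.3 and 56.5 in Dhps fl/fl, which overlapped. Ms4a3, the most abundant of them, was at 24.4 and 20.6 in Dhps ΔLysm and at 20.9 and 21.5 in Dhps fl/fl, which overlapped too. The 12 cell cycle genes had a median of -0.02, with 3 above 0, and Tubb5, the most abundant, was at 157 and 142 in Dhps ΔLysm and at 141 and 161 in Dhps fl/fl. Of 10 erythroid markers 9 were above 0 (median 0.10), of 5 platelet markers 2 (median -0.26) and of 5 tested eosinophil markers 5 (median 0.45). Their most abundant genes were Hbb-bs, at 234 and 298 FPKM in Dhps ΔLysm and 199 and 284 in Dhps fl/fl, Gp1ba, at 1.29 and 1.12 in Dhps ΔLysm and 1.44 and 1.47 in Dhps fl/fl, and Siglecf, at 4.88 and 5.53 in Dhps ΔLysm and 4.49 and 5.62 in Dhps fl/fl. Reads of Hbb-bs can be shared with other beta globin genes, so its level is uncertain. Prg2, an eosinophil granule gene at 3.95 and 1.35 FPKM in Dhps ΔLysm and 0.98 and 0.50 in Dhps fl/fl, was the 1 gene of these 5 lists with an unadjusted p under 0.05. Of all genes tested, 4.72% were higher and 2.28% lower at that threshold, and 52.2% had a log2 fold change above 0. No gene of these 5 lists had an adjusted p under 0.05 by limma.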
